A study of Mus musculus with 32 samples.

Results

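The comparison described here concerns DN1 cells of the mouse embryonic thymus at day E15.5 that were positive for BCL11b, divided into cells with and without ID2. DN1 cells are the earliest of the thymocytes that lack both CD4 and CD8. The members were chosen by their sort labels and developmental stage alone, namely the 3 BCL11b+ID2+ and the 3 BCL11b+ID2- libraries at E15.5, which are 6 of the 32 libraries of the series. All genes with a normalised value of at least 10 in at least 3 of the 14 E15.5 libraries entered the test, 10289 of 19404 genes.

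Every library came from flow-sorted embryonic thymus cells of the reporter strain that the labels call 5x polychromILC, which all groups share. The reporter alleles of the strain and the sex of the embryos are not given in the sources used here. The BCL11b+ID2+ gate is the one in question and the BCL11b+ID2- gate is set beside it. BCL11b-ID2+ and BCL11b-ID2- DN1 cells (3 libraries each) and DN2 cells (2 libraries), the thymocytes of the following stage, completed the E15.5 set. The same 2 BCL11b+ gates at E19.5, with 3 libraries each, served as an independent set. Whether the libraries of a gate were made from separate embryos is not stated, so the p-values reflect only how far these libraries differ, and that spread may be technical.

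BCL11b is a zinc-finger transcription factor that comes on when thymocytes become committed T-cell precursors, and it is also kept by type 2 innate lymphoid cells (ILC2). ID2 lacks a DNA-binding domain and pairs with E proteins, the helix-loop-helix activators that drive early T-cell genes and the recombination of antigen receptors. Innate lymphoid cells (ILCs) depend on ID2, whereas early T-cell progenitors hold it low. Sorting on both therefore separates BCL11b-positive thymocytes by a regulator of the choice between T cells and ILCs.

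Between 12030749 and 20709387 reads were recovered per E15.5 library. The mitochondrial ribosomal RNA genes mt-Rnr1 and mt-Rnr2 took 55.1, 58.4 and 52.5% of them in the BCL11b+ID2+ libraries, against 50.8, 75.2 and 76.0% in the BCL11b+ID2- libraries. A value of at least 10 was reached by 5681, 6901 and 4999 of the tested genes in the BCL11b+ID2+ libraries and by 6485, 6819 and 6191 in the BCL11b+ID2- libraries. Replicates agreed loosely. Spearman correlations between libraries of one gate were 0.563 to 0.618 for BCL11b+ID2+ and 0.580 to 0.614 for BCL11b+ID2-, while at E19.5 they were 0.880 to 0.904 and 0.850 to 0.905. In 12.45% of the tested genes 1 BCL11b+ID2+ library stood at 0 while another reached at least 100, and in 11.2% this was so for the BCL11b+ID2- libraries. The E19.5 shares were 0.0072% and 0.072%. The part of this spread in the results was not tested.

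The gates were first read against their own genes. Id2 (chromosome 12, 25093799 to 25097140, GRCm38, as for all coordinates) had normalised values of 85.0, 284 and 2771 in the BCL11b+ID2+ libraries, against 3.64, 4.35 and 0 in the BCL11b+ID2- libraries. The libraries of the gates did not overlap, although the third BCL11b+ID2+ library was far above the first. The log2 difference of 7.13 ± 1.80 (SE) had an adjusted p of 0.061 and was not called. Bcl11b (chromosome 12, 107910403 to 108003602) was present in all 6 libraries, at 2574, 1432 and 5511 in BCL11b+ID2+ cells and 1488, 927 and 4467 in BCL11b+ID2- cells. Its gates overlapped (log2 difference 0.57 ± 1.36, adjusted p = 0.923). Ptprc, which encodes the leukocyte antigen CD45, had 4943, 2135 and 2181 in BCL11b+ID2+ libraries and 2044, 1802 and 6000.4 in BCL11b+ID2- libraries. Tcf7, an early T-cell factor that ILC precursors also carry, had 3852, 1465 and 2293 in BCL11b+ID2+ libraries and 3894, 3614 and 7162 in BCL11b+ID2- libraries. Kit, the receptor by which immature thymocytes are often gated, had 964, 1493 and 14.7 in BCL11b+ID2+ libraries, so the third library was low, and 184, 1602 and 582 in BCL11b+ID2- libraries.

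Set against BCL11b+ID2- cells, to see which RNAs accompany ID2 once BCL11b is on, 41 genes were higher and 33 lower in the BCL11b+ID2+ gate, 0.398% and 0.321% of the 10289 tested (limma, adjusted p under 0.05). At an unadjusted p under 0.05 there were 1285 genes. Receptors and regulators of ILCs and their precursors, among them Il18r1, Il18rap, Cxcr6, Rora, Arg1 and Cd200r1, were higher, together with the Notch ligand Jag1 and the transcription factors Maf and Ikzf3. The recombinase genes Rag1 and Rag2, the progenitor factors Erg, Myb and Lin28b and the Notch receptor Notch3 were lower. The stem and progenitor list as a whole was mixed, with 8 positive and 9 negative differences among 17 tested. Log2 differences ran from 1.72 to 8.99 among the higher genes and from -8.95 to -2.55 among the lower ones. For all 74, the libraries of the gates did not overlap, which was also the case for 1345 of the 10289 tested genes in all. In these bulk libraries, fewer cells of a type and less RNA per cell cannot be told apart.

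The number of called genes moved with single libraries. It was 22, 79 and 15 without BCL11b+ID2+ library 1, 2 or 3, and 28, 21 and 26 without BCL11b+ID2- library 1, 2 or 3. The split also moved with the tool, with 45 genes higher and 17 lower in edgeR on the recovered reads, and 510 higher and 574 lower in DESeq2. A total of 9 genes was called in all 6 leave-one-out fits, among them Maf and Rgs1, which were higher, and Erg, Rag2, Aff3, Camk2a, Myb and Cd24a, which were lower. The other 65 lost the call in at least 1 of these fits. In a fit of the 6 libraries alone, 2 genes were called, with Maf among them.

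**Figure D1:**
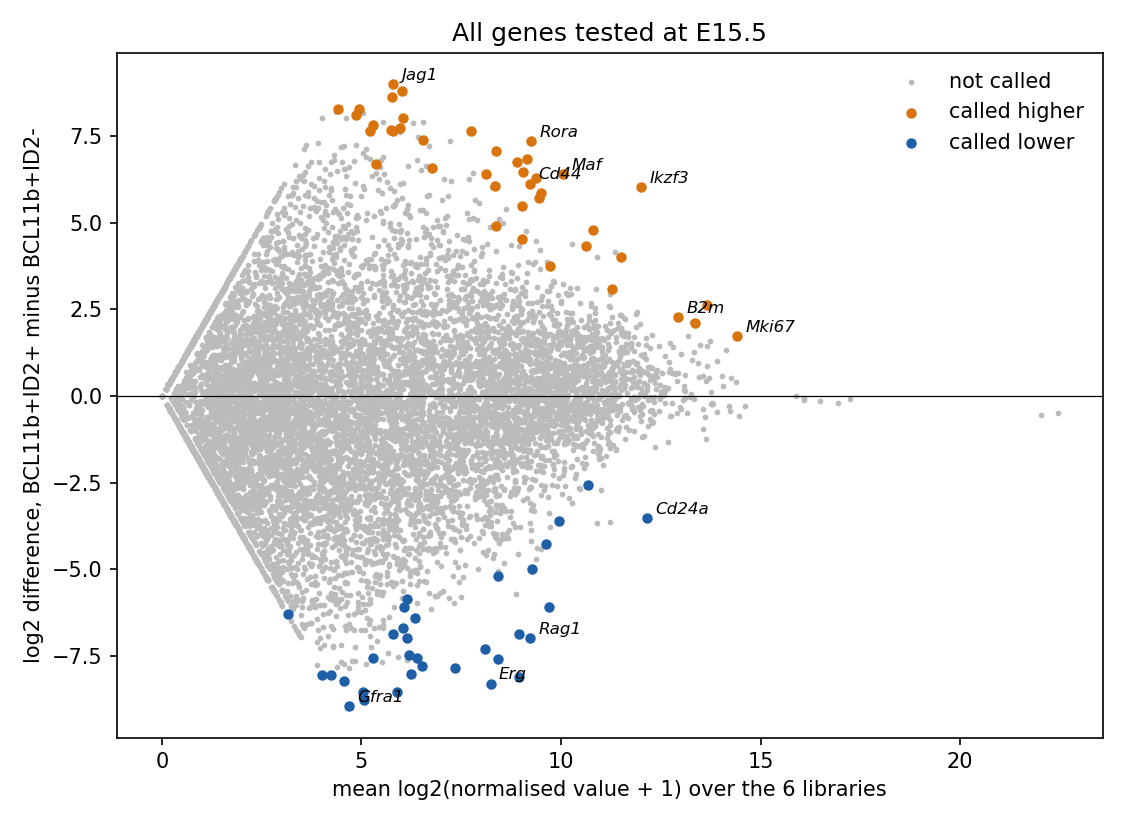
Each point is 1 of the 10289 genes tested at E15.5, with the mean of log2(normalised value + 1) over the 6 libraries on the x axis and the log2 difference, BCL11b+ID2+ minus BCL11b+ID2-, on the y axis. The 41 genes called higher (orange) and 33 called lower (blue) lie at the edge of a wide cloud, and the smallest differences called were those of the highly expressed genes Mki67, Lcp1 and B2m.

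Across the Notch pathway, the ligand and receptor that were called moved in opposite directions. Notch receptors are cleaved on contact with a ligand on a neighbouring cell, and the signal starts and sustains T-cell development in the thymus. Jag1 (chromosome 2, 137081456 to 137116644), a Notch ligand, had 1500.5, 939.7 and 1404 in the BCL11b+ID2+ libraries, against 0.729, 1.09 and 3.16 in the BCL11b+ID2- libraries. All 3 BCL11b+ID2+ libraries were high, and the 3 BCL11b+ID2- libraries together held 4 reads. Its mean was 772-fold higher, the largest log2 difference of the 41 higher genes (8.99 ± 1.77, adjusted p = 0.0159). Notch3 (chromosome 17, 32120820 to 32166852), a receptor, had 0, 0.560 and 1.64 in the BCL11b+ID2+ libraries, where 2 reads were found in all, against 1223, 587 and 459 in the BCL11b+ID2- libraries (log2 difference -8.75 ± 1.85, adjusted p = 0.0243). With so few reads in a gate, the size of a log2 difference depends on the pseudocount of 1, here and for the 9 called genes with at most 3 reads in the lower gate.

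Of 14 Notch genes tested, Jag1 and Notch3 were the 2 called, and the median log2 difference of the list was 0.49 beside -0.22 over all genes. Among all tested genes, 0.398% were called higher and 0.321% lower. Notch1, the receptor required for T-cell specification, had 76.0, 578 and 2442 in BCL11b+ID2+ libraries and 6999, 1209 and 1502 in BCL11b+ID2- libraries, with overlap. The Notch target genes were not called either. Hes1 had 9, 82.3 and 1.64 in BCL11b+ID2+ libraries against 131, 253 and 141 in BCL11b+ID2- libraries (log2 difference -3.69 ± 1.85, adjusted p = 0.421). Dtx1, a Notch-induced modulator of the pathway, had 1, 2.24 and 0 in BCL11b+ID2+ libraries against 361, 53.3 and 155 in BCL11b+ID2- libraries (log2 difference -6.28 ± 1.99, adjusted p = 0.152). In the leave-one-out fits, the adjusted p of Jag1 ran from 0.0335 to 0.0705 and was highest without BCL11b+ID2+ library 1. That of Notch3 ran from 0.0451 to 0.106 and was highest without BCL11b+ID2- library 1.

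**Figure D2:**
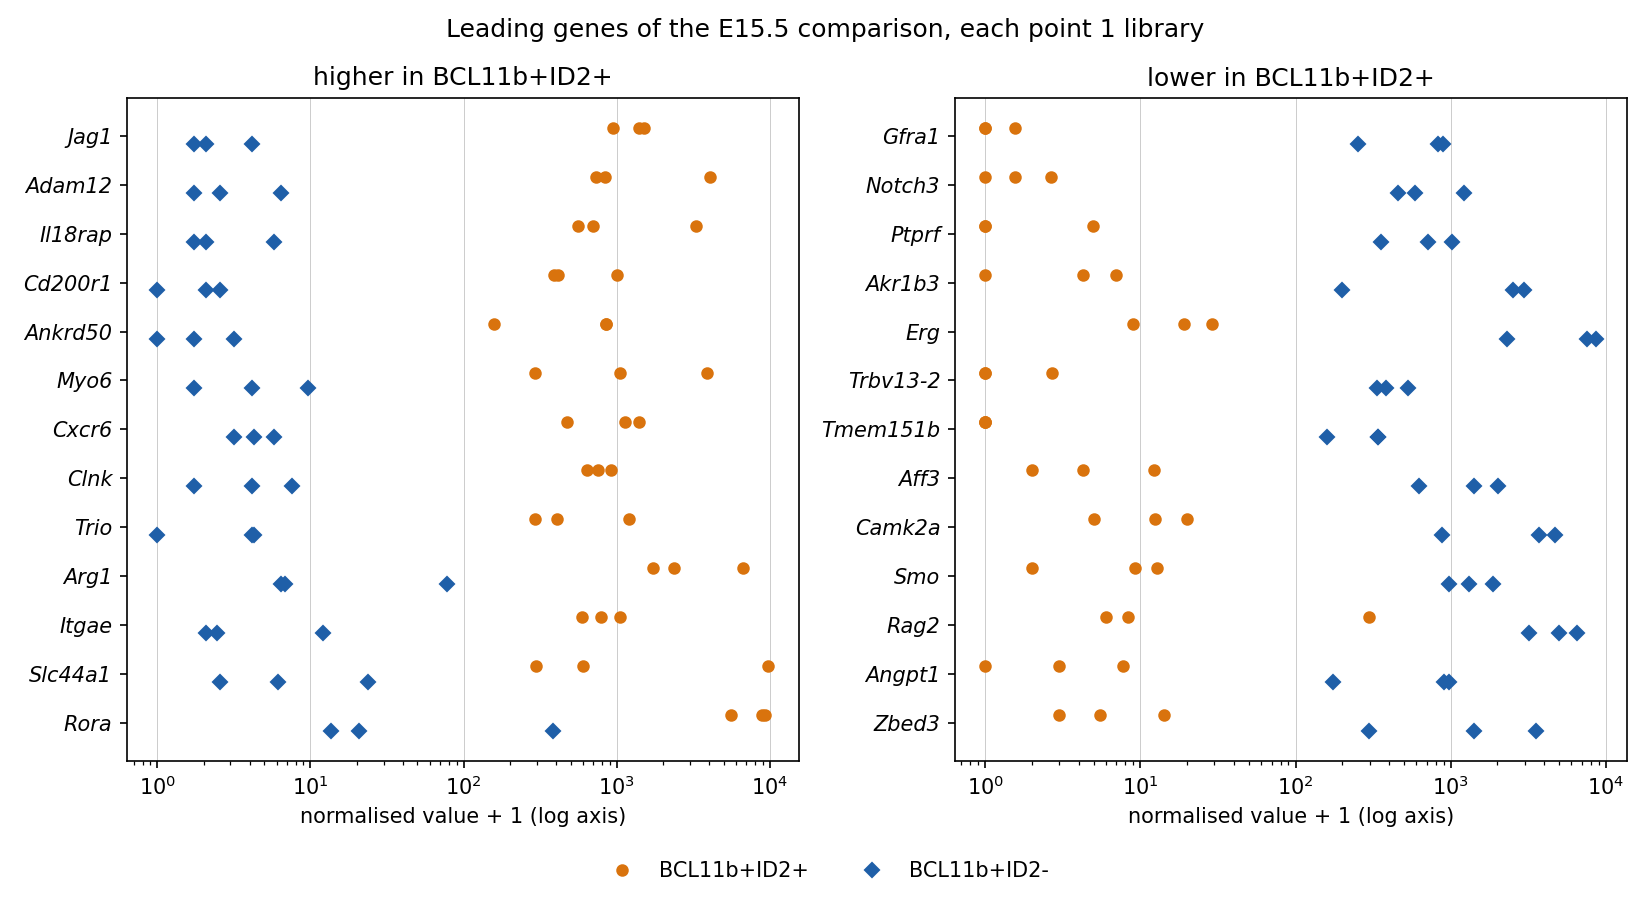
Normalised value + 1 on a log axis for genes reported here among the 15 with the largest log2 differences in each direction, with 1 point for each library (BCL11b+ID2+ as orange circles, BCL11b+ID2- as blue diamonds). The gates do not overlap for any of these genes, which was a condition for choosing them. Slc44a1 shows 1 BCL11b+ID2+ library far above the other 2, and Tmem151b had no read in that gate.

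Of 7 tested genes of the recombination machinery and of alpha-beta thymocytes, 3 were lower, 0 were higher and 4 did not pass. The share called lower over all tested genes was 0.321%. RAG1 and RAG2 together cut DNA at antigen receptor loci. Rag1 (chromosome 2, 101638282 to 101649501) had 434, 14 and 22.9 in the BCL11b+ID2+ libraries, against 11238, 4815 and 5663 in the BCL11b+ID2- libraries. Its mean was 46.1-fold lower (log2 difference -6.97 ± 1.38, adjusted p = 0.0159), and BCL11b+ID2+ library 1 held most of what was left. Its neighbour Rag2 (chromosome 2, 101624718 to 101632529) had 5, 7.28 and 298 in BCL11b+ID2+ libraries, against 6554, 3219 and 5026 in BCL11b+ID2- libraries, 47.7-fold lower (log2 difference -7.59 ± 1.35, adjusted p = 0.00673). Here the third BCL11b+ID2+ library was the high one. Arpp21, which encodes an RNA-binding phosphoprotein found in immature thymocytes, had 2, 241 and 13.1 in BCL11b+ID2+ libraries and 2420.1, 4604 and 3546 in BCL11b+ID2- libraries (adjusted p = 0.0251).

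These were the 3 members called, and the median log2 difference of the list was -5.91. Ptcra, the surrogate alpha chain of the pre-T-cell receptor, had 1, 0.560 and 0 in BCL11b+ID2+ libraries and 136, 15.2 and 305 in BCL11b+ID2- libraries, and did not pass (log2 difference -5.91 ± 1.75, adjusted p = 0.115). Trbv13-2, a variable segment of the T-cell receptor beta locus, was lower, at 0, 1.68 and 0 in BCL11b+ID2+ libraries against 534, 380.5 and 334 in BCL11b+ID2- libraries (adjusted p = 0.0274). Its reads may be shared with similar segments. Of 17 T-cell receptor complex and signalling genes, 0 were called, with a median log2 difference of -0.73. Cd3e, a signalling subunit of the receptor, had 668, 704 and 335 in BCL11b+ID2+ libraries and 9916, 3919 and 8269.5 in BCL11b+ID2- libraries (log2 difference -3.66 ± 1.22, adjusted p = 0.184). Rag1 lost its call without any of the BCL11b+ID2- libraries and without BCL11b+ID2+ library 3, with adjusted p up to 0.106, while Rag2 was called, with adjusted p up to 0.0494, in all 6 leave-one-out fits.

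Since ID proteins act through E proteins, the windows around the start sites of called genes were read for the E-box letters. The first form searched was CAGCTG, which reads the same on both strands. The other was CAGGTG, found on the opposite strand as its complement CACCTG. The RefSeq table (GRCm38.p6) gives 300 bases for each start site, 250 before it and 50 after, and a gene may have several start sites and so several windows. Of the higher genes 28 of 41 matched a window, and 8 of their 37 windows (21.6%) held one of these letters. Of the lower genes 24 of 33 matched, and 17 of 42 windows (40.5%) held one. The share over all 32851 windows, which belong to 27025 genes, was 32.9%. Windows were counted and not genes, so a gene with several windows counts more than once. No share per gene was taken, and the difference between these shares was not tested. A match is a description and no proof of binding. The 250 bases before the start site are shown for Jag1 and Notch3, the ligand and receptor above, and for Rora and Rag1, a regulator of ILC2 and a recombinase gene. All run 5′ to 3′ on the strand of the gene, with the E-box letters in capitals. The positions are chr2:137116521-137116770 (minus strand) for Jag1, chr17:32166891-32167140 (minus strand) for Notch3, chr9:68653536-68653785 (plus strand) for Rora and chr2:101649533-101649782 (minus strand) for Rag1.
Jag1: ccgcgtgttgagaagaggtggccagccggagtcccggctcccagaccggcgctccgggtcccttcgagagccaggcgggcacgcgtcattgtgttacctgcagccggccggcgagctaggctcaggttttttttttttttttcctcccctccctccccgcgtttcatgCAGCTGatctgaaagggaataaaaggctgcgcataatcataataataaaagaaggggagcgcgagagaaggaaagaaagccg
Notch3: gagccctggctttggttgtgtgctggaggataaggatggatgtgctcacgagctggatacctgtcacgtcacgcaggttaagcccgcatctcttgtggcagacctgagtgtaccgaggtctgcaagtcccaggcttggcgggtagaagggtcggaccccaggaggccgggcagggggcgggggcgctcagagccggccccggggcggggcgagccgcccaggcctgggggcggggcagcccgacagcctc
Rora: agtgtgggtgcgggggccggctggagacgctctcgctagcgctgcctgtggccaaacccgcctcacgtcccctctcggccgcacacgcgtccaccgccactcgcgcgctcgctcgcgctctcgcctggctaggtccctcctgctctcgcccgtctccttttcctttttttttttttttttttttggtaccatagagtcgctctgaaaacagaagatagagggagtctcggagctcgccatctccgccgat
Rag1: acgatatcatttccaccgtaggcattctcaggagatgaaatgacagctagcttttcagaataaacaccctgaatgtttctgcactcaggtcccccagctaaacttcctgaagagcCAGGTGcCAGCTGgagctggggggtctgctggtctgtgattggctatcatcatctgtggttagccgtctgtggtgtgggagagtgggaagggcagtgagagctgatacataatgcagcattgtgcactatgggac
Jag1 held 1 such match, 82 bases before the RefSeq start site, and Rag1 held 2, beginning 135 and 128 bases before its own. The gene coordinates given above for Jag1 come from another annotation. They reach into its window and cover this match. Notch3 and Rora held 0 in their windows.

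Of 14 ILC precursor genes tested, 4 were higher in the BCL11b+ID2+ gate, 0 were lower and 10 did not pass, with a median log2 difference of 2.52. The share called higher over all tested genes was 0.398%. Il18r1 and Il18rap encode the chains of the IL-18 receptor and are neighbours on chromosome 1. Il18r1 (40465552 to 40500854) had 4915, 6036 and 7306 in the BCL11b+ID2+ libraries, against 8.74, 369.6 and 39.6 in the BCL11b+ID2- libraries, 43.7-fold higher (log2 difference 6.83 ± 1.41, adjusted p = 0.0201). Il18rap (40515362 to 40551705) had 3278, 560.2 and 695 in BCL11b+ID2+ libraries, against 0.729, 1.09 and 4.75 in BCL11b+ID2- libraries (log2 difference 8.63 ± 1.87, adjusted p = 0.0274). Both chains were high in all 3 BCL11b+ID2+ libraries, and BCL11b+ID2- library 2 had Il18r1 above the other 2 of its gate. Cxcr6, a chemokine receptor of ILC precursors and tissue lymphocytes, had 474, 1126 and 1407 in BCL11b+ID2+ libraries, against 2.19, 3.26 and 4.75 in BCL11b+ID2- libraries (log2 difference 7.73 ± 1.81, adjusted p = 0.0409). Arg1, the arginase that ILC precursors and ILC2 express, had 2374, 1718 and 6728 in BCL11b+ID2+ libraries, against 5.83, 5.44 and 77.5 in BCL11b+ID2- libraries, 122-fold higher (adjusted p = 0.0379). Of the other precursor genes, Nfil3, a regulator of early ILC development, was uneven at 0, 15.7 and 512 in BCL11b+ID2+ libraries against 0, 0 and 1.58 in BCL11b+ID2- libraries (adjusted p = 0.541).

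The ILC2 list had 25 members, of which 20 were in the table and 13 passed the filter. Of these 13, 3 were higher and 0 lower, beside 0.398% and 0.321% of all tested genes. Their median log2 difference, 4.76, was the highest of the lists. Genes high only in the BCL11b+ID2+ libraries can pass the filter, while members low everywhere drop out. The median and its rank are therefore partly set by the filter. Rora (chromosome 9, 68653786 to 69388246), the nuclear receptor needed for ILC2, had 9352, 8868 and 5578 in BCL11b+ID2+ libraries, against 19.7, 386 and 12.7 in BCL11b+ID2- libraries, 56.9-fold higher (log2 difference 7.34 ± 1.48, adjusted p = 0.0185). Cd200r1, an inhibitory receptor, had 414, 388 and 998 in BCL11b+ID2+ libraries, against 0, 1.09 and 1.58 in BCL11b+ID2- libraries (log2 difference 8.28 ± 1.84, adjusted p = 0.0314). Arg1 was the other member called. Further ILC2 genes did not pass, and the 4 given next had the largest differences among those with a mean of at least 100. Of the 13 tested, 10 differences were positive and 3 negative. Il1rl1, the IL-33 receptor, had 37.0, 1384 and 1189 in BCL11b+ID2+ libraries against 0.729, 1.09 and 0 in BCL11b+ID2- libraries (log2 difference 8.02 ± 2.13, adjusted p = 0.072). Il13, the type 2 cytokine, had 222, 129 and 1853 in BCL11b+ID2+ libraries against 0.729, 2.17 and 4.75 in BCL11b+ID2- libraries (log2 difference 6.90 ± 2.02, adjusted p = 0.114). Cysltr1, a leukotriene receptor, had 4095, 2215 and 2696 in BCL11b+ID2+ libraries against 71.4, 89.1 and 187 in BCL11b+ID2- libraries (log2 difference 4.76 ± 1.48, adjusted p = 0.142). Icos, a costimulatory receptor, had 646, 395 and 545 in BCL11b+ID2+ libraries against 27.7, 3.26 and 50.6 in BCL11b+ID2- libraries (log2 difference 4.81 ± 1.88, adjusted p = 0.272). The gates did not overlap for any of these 4, nor for 1345 of all 10289 tested genes, so nothing further is read from it. Gata3, the factor that ILC2 and T cells share, had 3742, 2161 and 3941 in BCL11b+ID2+ libraries and 467, 1413 and 1891 in BCL11b+ID2- libraries, and was not called.

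In the leave-one-out fits the adjusted p of most of these genes lay on both sides of the threshold. It ran from 0.0106 to 0.106 for Il18r1 and from 0.0106 to 0.0858 for Rora, in both cases highest without BCL11b+ID2- library 1. For Arg1 it ran from 0.0496 to 0.135, highest without BCL11b+ID2+ library 3. Il18rap, at 0.0453 to 0.1055, and Cd200r1, at 0.0480 to 0.113, were each called in 1 of the 6 fits. Cxcr6, at 0.0715 to 0.123, was called in none of the 6 fits.

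The counts for other innate lineages stand beside 0.398% of all tested genes called higher and 0.321% called lower. Of 8 type 3 ILC genes tested, Rora was the 1 called, and it is shared with the ILC2 list. Ccr6, a chemokine receptor of type 3 ILCs, had 287, 212 and 124 in BCL11b+ID2+ libraries against 5.10, 0 and 0 in BCL11b+ID2- libraries, and did not pass (log2 difference 6.75 ± 1.74, adjusted p = 0.063). Of 21 genes of natural killer (NK) cells and ILC1, 0 were called, with a median log2 difference of 2.03. Il2rb, the IL-2 and IL-15 receptor chain on which NK cells depend, had 225, 498 and 719.8 in BCL11b+ID2+ libraries against 1.46, 8.70 and 4.75 in BCL11b+ID2- libraries (log2 difference 6.39 ± 1.70, adjusted p = 0.071). Klrb1b, a lectin-like NK receptor whose reads may be shared with its family, had 223, 186 and 1459 in BCL11b+ID2+ libraries against 0.729, 3.26 and 4.75 in BCL11b+ID2- libraries (adjusted p = 0.0663). The cytotoxic protease gene Gzma lay in the other direction, at 1931, 222 and 26.2 in BCL11b+ID2+ libraries and 3543, 4566 and 1891 in BCL11b+ID2- libraries (log2 difference -3.78 ± 1.04, adjusted p = 0.0821).

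**Figure D3:**
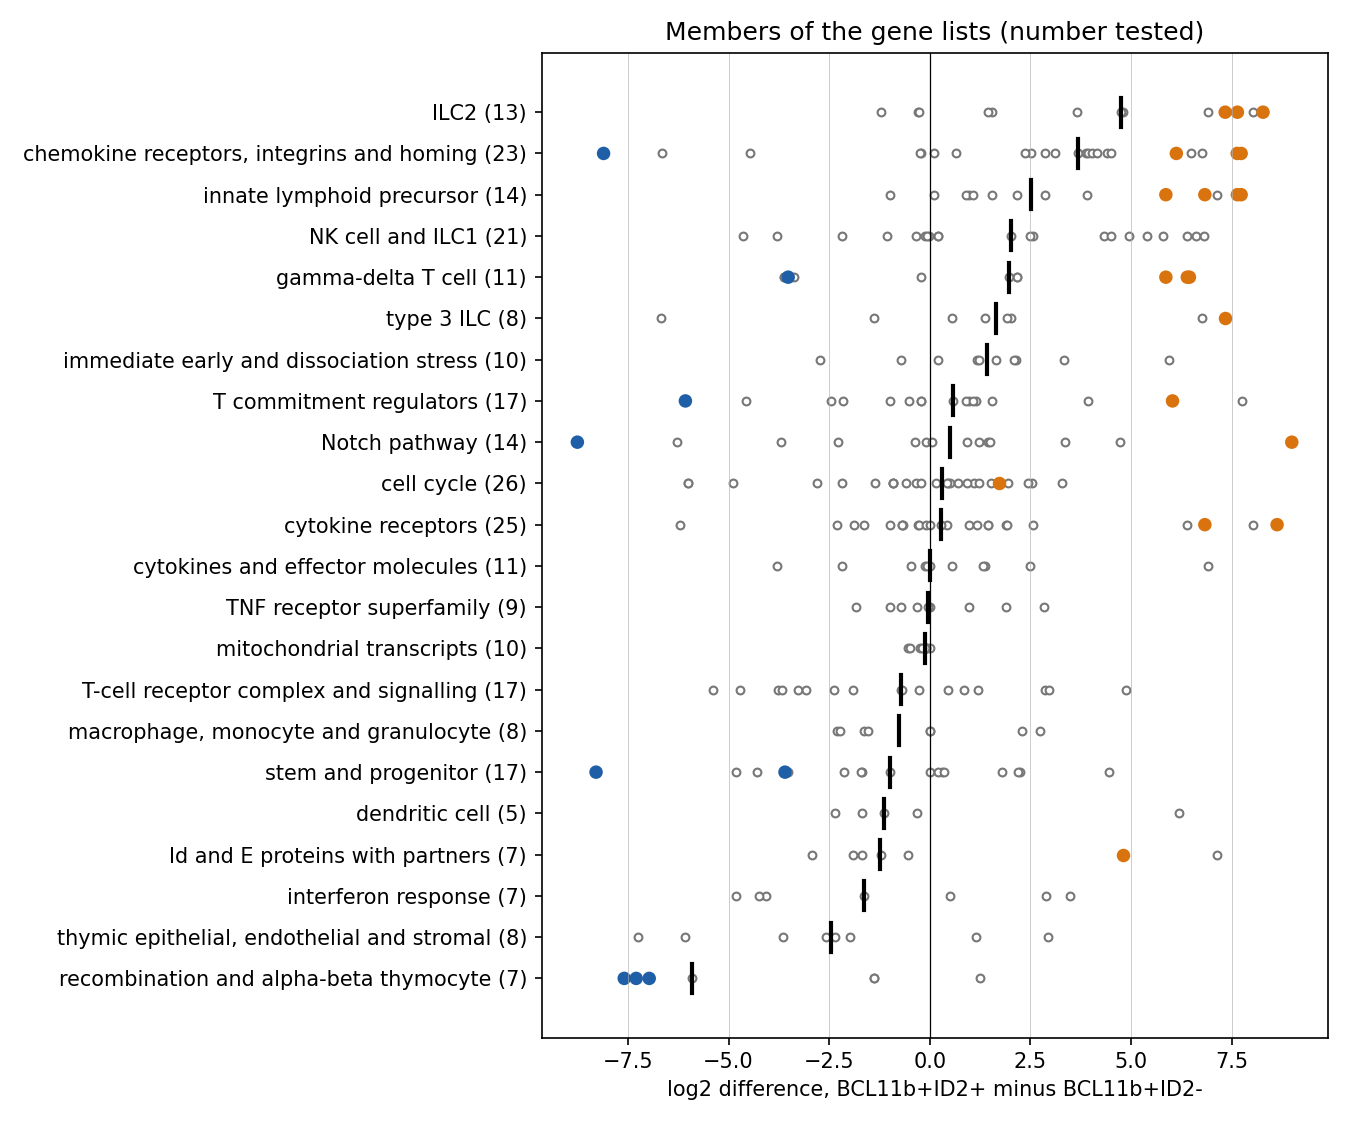
Log2 difference, BCL11b+ID2+ minus BCL11b+ID2-, of each tested member of the gene lists with at least 5 members tested (number in brackets). Filled points passed the test (orange higher, blue lower), open points did not, and black bars are medians, from 4.76 for ILC2 genes at the top to -5.91 for recombination and alpha-beta thymocyte genes at the bottom. Medians cover only members that passed the filter, which genes high in a single gate can meet, so their order is partly set by it.

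Homing receptors and integrins had 3 members higher and 1 lower of 23 tested, with a median log2 difference of 3.69. Over all tested genes, 0.398% were higher and 0.321% lower. Cd44, the hyaluronan receptor that marks DN1 cells and activated lymphocytes, had 2571, 3751 and 13066 in BCL11b+ID2+ libraries, against 7.29, 116 and 381 in BCL11b+ID2- libraries, 38.4-fold higher (log2 difference 6.12 ± 1.08, adjusted p = 0.00673, and 0.0539 without BCL11b+ID2+ library 3). All 3 BCL11b+ID2- libraries lay below every BCL11b-negative DN1 library for this DN1 marker. Itgae, the integrin chain that binds E-cadherin, had 1048, 592 and 785 in BCL11b+ID2+ libraries, against 1.46, 1.09 and 11.1 in BCL11b+ID2- libraries (adjusted p = 0.0466, and 0.0689 to 0.129 in the leave-one-out fits, none of which called it). Cxcr6, given above, was the third higher member. Ccr2 and Itgb3 were near the threshold. Ccr2, a receptor for inflammatory chemokines, had 6865, 5997 and 10944 in BCL11b+ID2+ libraries and 59, 984 and 1789.7 in BCL11b+ID2- libraries (adjusted p = 0.0517). Itgb3, an integrin beta chain, had 10162, 5712 and 3089 in BCL11b+ID2+ libraries and 634, 179 and 168 in BCL11b+ID2- libraries (adjusted p = 0.063). Cxcr4, the receptor that holds progenitors in contact with stroma, had 3, 1.68 and 6.54 in BCL11b+ID2+ libraries and 412, 176 and 1136 in BCL11b+ID2- libraries (adjusted p = 0.0575).

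Among 11 gamma-delta T-cell genes tested, 3 were higher and 1 lower, with a median log2 difference of 1.97. These counts stand beside 0.398% and 0.321% of all tested genes. Maf (chromosome 8, 115682942 to 115707794), a bZIP factor of IL-17-producing gamma-delta T cells and of some ILCs, had 9113, 6770.4 and 15263 in the BCL11b+ID2+ libraries, against 56.8, 353 and 76.0 in the BCL11b+ID2- libraries. Its mean was 64.1-fold higher (log2 difference 6.40 ± 1.03, adjusted p = 0.00403), and its call was kept in all 14 alternatives. Cd163l1, a scavenger receptor of IL-17-producing gamma-delta T cells, had 5837, 4629.6 and 4384 in BCL11b+ID2+ libraries, against 52.5, 242 and 12.7 in BCL11b+ID2- libraries (adjusted p = 0.0361, and 0.0512 to 0.138 in the leave-one-out fits, none of which called it). Tcrg-C4, a constant region of the T-cell receptor gamma locus that ILC precursors also transcribe, had 5723, 3322 and 8763 in BCL11b+ID2+ libraries, against 407, 54.4 and 36.4 in BCL11b+ID2- libraries, 35.8-fold higher (adjusted p = 0.0341, and up to 0.130 in the leave-one-out fits, 1 of which called it).

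Tcrg-C2, another constant region of that locus, had 868, 71.6 and 5038 in BCL11b+ID2+ libraries and 8057, 5918 and 12629 in BCL11b+ID2- libraries, and did not pass (log2 difference -3.63 ± 1.09, adjusted p = 0.122). Reads may be shared between these similar sequences. Trdc, the delta constant region, had 556, 62.7 and 36.0 in BCL11b+ID2+ libraries and 1163, 1015 and 1223 in BCL11b+ID2- libraries (adjusted p = 0.485). Cd24a, a surface glycoprotein of immature thymocytes that is lost as gamma-delta T cells mature, had 2379, 641 and 1603 in BCL11b+ID2+ libraries, against 17372, 9588 and 22096 in BCL11b+ID2- libraries, 10.6-fold lower (log2 difference -3.52 ± 0.58, adjusted p = 0.00415). It was called in each of the 6 leave-one-out fits, with adjusted p up to 0.0413.

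The T-commitment regulators split, with Ikzf3 higher and Myb lower of 17 tested and a median log2 difference of 0.57. All tested genes gave 0.398% higher and 0.321% lower. Ikzf3 encodes Aiolos, an Ikaros-family zinc-finger factor, and had 24131, 26845 and 57545 in BCL11b+ID2+ libraries, against 3154, 873 and 47.5 in BCL11b+ID2- libraries, 26.6-fold higher (log2 difference 6.03 ± 1.103, adjusted p = 0.00945, and 0.0598 without BCL11b+ID2+ library 3). Myb, a factor of proliferating progenitors, had 14, 1226 and 55.6 in BCL11b+ID2+ libraries, against 5382, 8197 and 7165 in BCL11b+ID2- libraries. BCL11b+ID2+ library 2 was far above the other 2 of its gate, and the mean was 16-fold lower (log2 difference -6.07 ± 1.04, adjusted p = 0.0058). Tox2, an HMG-box factor, had 162, 1040.4 and 1211 in BCL11b+ID2+ libraries against 0.729, 1.09 and 4.75 in BCL11b+ID2- libraries and did not pass (adjusted p = 0.0619).

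Stem and progenitor genes had 2 members lower and 0 higher of 17 tested, with a median log2 difference of -0.98. The share called lower over all tested genes was 0.321%. Of the 17 differences, 8 were positive and 9 negative. Erg (chromosome 16, 95359169 to 95586593), an Ets-family factor of haematopoietic stem cells and the earliest T-cell progenitors, had 8, 28 and 18 in BCL11b+ID2+ libraries, against 2301, 8659 and 7622 in BCL11b+ID2- libraries. It was 344-fold lower (log2 difference -8.29 ± 1.19, adjusted p = 0.000868) and was called in all 6 leave-one-out fits, with adjusted p up to 0.0145. Lin28b, an RNA-binding protein of fetal haematopoiesis, had 215, 578 and 185 in BCL11b+ID2+ libraries, against 1519.7, 3143 and 8595 in BCL11b+ID2- libraries, 13.6-fold lower (log2 difference -3.60 ± 0.82, adjusted p = 0.0341, and 0.185 without BCL11b+ID2- library 3). Hmga2, a chromatin protein that is a known LIN28 pathway target, had 6, 204 and 262 in BCL11b+ID2+ libraries and 1665, 1538 and 3288 in BCL11b+ID2- libraries, and just missed the threshold (log2 difference -4.82 ± 1.23, adjusted p = 0.0619). Hlf, a bZIP factor of stem cells, lay the other way in 2 libraries, at 3611, 3511 and 72.0 in BCL11b+ID2+ libraries and 79.4, 6.52 and 144 in BCL11b+ID2- libraries, with overlap (adjusted p = 0.371).

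Of 7 tested ID proteins, E proteins and partners, Lmo4, a LIM-domain adaptor that joins such complexes, was the 1 called. It had 6677, 5380.1 and 22852 in BCL11b+ID2+ libraries, against 783, 321 and 153 in BCL11b+ID2- libraries, 27.8-fold higher (log2 difference 4.79 ± 1.09, adjusted p = 0.0341, and 0.0520 to 0.150 in the leave-one-out fits, none of which called it). The list's median was -1.22. Of 26 cell cycle genes, Mki67, the proliferation marker, was the 1 called, 3.31-fold higher at 38366, 29318 and 55937 in BCL11b+ID2+ libraries against 12454, 8769 and 16148 in BCL11b+ID2- libraries (log2 difference 1.72 ± 0.35, adjusted p = 0.0191). The other 25 did not pass and the list's median was 0.30. Cdk4, a kinase of the G1 phase, had 3, 21.3 and 0 in BCL11b+ID2+ libraries and 107, 527 and 413 in BCL11b+ID2- libraries (adjusted p = 0.0984).

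The leading genes outside the lists were of mixed kinds. Adam12, a membrane metalloprotease, had 4053, 841 and 735 in BCL11b+ID2+ libraries, against 0.729, 5.44 and 1.58 in BCL11b+ID2- libraries (log2 difference 8.79 ± 1.84, adjusted p = 0.0233). Clnk, an adaptor of immune-receptor signalling, had 752, 922 and 641 in BCL11b+ID2+ libraries, against 0.729, 6.52 and 3.16 in BCL11b+ID2- libraries (adjusted p = 0.0449). Ankrd50, Myo6, Trio and Slc44a1 were also among the first 15 higher genes, with log2 differences from 7.39 to 8.11. Rgs1, a damper of chemokine-receptor signalling, ranked below them and was singled out after its values were seen for its small spread. It had 4550.5, 3278 and 3838 in BCL11b+ID2+ libraries, against 18.2, 46.7 and 25.3 in BCL11b+ID2- libraries, 129-fold higher (log2 difference 7.06 ± 0.96, adjusted p = 0.000646).

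Among the lower genes, Gfra1, a coreceptor for glial-derived growth factors, had 0, 0.560 and 0 in BCL11b+ID2+ libraries, against 830.5, 252 and 894 in BCL11b+ID2- libraries (log2 difference -8.95 ± 1.98, adjusted p = 0.0314). Smo, the signal transducer of the Hedgehog pathway, which acts on early thymocytes, had 1, 11.8 and 8.18 in BCL11b+ID2+ libraries, against 1887, 982 and 1309 in BCL11b+ID2- libraries, 199.6-fold lower (adjusted p = 0.0274). Aff3, a nuclear protein of the AF4 family, had 1, 11.2 and 3.27 in BCL11b+ID2+ libraries, against 2015, 628 and 1411 in BCL11b+ID2- libraries (log2 difference -8.01 ± 1.38, adjusted p = 0.0058). Angpt1, the ligand of the TIE2 receptor, had 2, 6.72 and 0 in BCL11b+ID2+ libraries, against 173, 900.1 and 970.0 in BCL11b+ID2- libraries (adjusted p = 0.0274). Tmem151b had 0 reads in the BCL11b+ID2+ gate, against 159, 341 and 339 in BCL11b+ID2- libraries, and was at least 263-fold lower by a floor of 3 reads over the gate. Ptprf, Akr1b3, Camk2a and Zbed3 were also among the first 15 lower genes, with log2 differences from -8.54 to -7.54.

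Markers of other cells were read beside these results. The mast cell list had 1 member called, Cpa3, a protease that early thymic progenitors transcribe too, which had 1, 7.84 and 14.7 in BCL11b+ID2+ libraries, against 806, 1734 and 212 in BCL11b+ID2- libraries, 117-fold lower (log2 difference -6.68 ± 1.176, adjusted p = 0.00673, and 0.0624 without BCL11b+ID2- library 2). Mcpt1, Mcpt4, Tpsb2, Cma1, Fcer1a and Ms4a2, 6 of the 12 mast cell and basophil genes in the table, were at 0 in all 6 libraries. Of 8 macrophage, monocyte and granulocyte genes tested 0 were called, and the summed value of all 16 in the table was 57, 121 and 636 in BCL11b+ID2+ libraries and 5, 284 and 22 in BCL11b+ID2- libraries. Adgre1, Cd68, C1qa and C1qb were at 0 in all 6. The B-lineage genes (3 tested), dendritic cell genes (5), erythroid and megakaryocyte genes (1) and thymic epithelial, endothelial and stromal genes (8) had 0 called each. The summed value of the 16 epithelial, endothelial and stromal genes in the table was 8934, 4738 and 7867 in BCL11b+ID2+ libraries and 1249, 2931 and 6567 in BCL11b+ID2- libraries. Of 10 mitochondrial transcripts, 10 immediate early and stress genes and 7 interferon response genes, 0 were called, with medians of -0.12, 1.43 and -1.64. Their part in the results was not tested.

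The BCL11b-negative gates, which the comparison used only in the filter and to estimate the spread, showed where the called genes stood with ID2 but without BCL11b. Of the 41 higher genes, 39 had a higher mean in BCL11b-ID2+ than in BCL11b-ID2- libraries, while 5171 of all 10289 tested genes did. Of the 33 lower genes, 24 had a lower mean in BCL11b-ID2+ libraries, against 5101 of all genes. Jag1 had 675, 470.0 and 662 in BCL11b-ID2+ libraries and 1.42, 1.32 and 1.35 in BCL11b-ID2- libraries. Il18r1 had 7117, 9734 and 3264 in BCL11b-ID2+ libraries and 89.5, 172 and 6.74 in BCL11b-ID2- libraries. Both thus stood high in all ID2-positive libraries at either BCL11b state.

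The interaction, in which the difference between the BCL11b-ID2+ and BCL11b-ID2- gates is taken from that between the BCL11b+ gates, was called for 0 genes (0.0% of 10289, limma), with 662 at an unadjusted p under 0.05, a smallest adjusted p of 0.454, and 0 in edgeR but 377 in DESeq2. Among the 74 called genes, 26 had an unadjusted interaction p under 0.05. The interaction contains the same difference by which these 74 were called, so their share is raised by that choice and nothing is read from it. The 26 included genes whose levels in the BCL11b-negative gates were close. Maf had 364, 1006 and 1111 in BCL11b-ID2+ libraries and 1030.2, 99.7 and 737 in BCL11b-ID2- libraries. Cd44 had 2333, 2357 and 3195 in BCL11b-ID2+ libraries and 1259, 756 and 2589 in BCL11b-ID2- libraries. Cpa3 had 3751, 1124 and 1185 in BCL11b-ID2+ libraries and 2875, 1826 and 990.0 in BCL11b-ID2- libraries, and Lin28b had 1910.5, 2222 and 1331 in BCL11b-ID2+ libraries and 1656, 2023 and 784 in BCL11b-ID2- libraries. No difference between the BCL11b states was shown for these genes, since none passed after adjustment.

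For several of the genes above, the DN2 libraries lay on the same side of the BCL11b+ID2+ gate as the BCL11b+ID2- libraries. In the 2 DN2 libraries, Rag1 had 3536 and 4371, Rag2 had 2711 and 6660.0, Myb had 9487 and 6628 and Cd24a had 13768 and 16738, all above every BCL11b+ID2+ library. Jag1 had 2.73 and 1.23, Rora 7.52 and 12.3, Il18r1 4.78 and 14.7, and Itgae 0 and 0 in DN2, all below every BCL11b+ID2+ library. These genes were picked from those called between the 2 BCL11b+ gates, so no likeness of DN2 cells to either gate is read from them. No test was run with DN2.

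**Figure D4:**
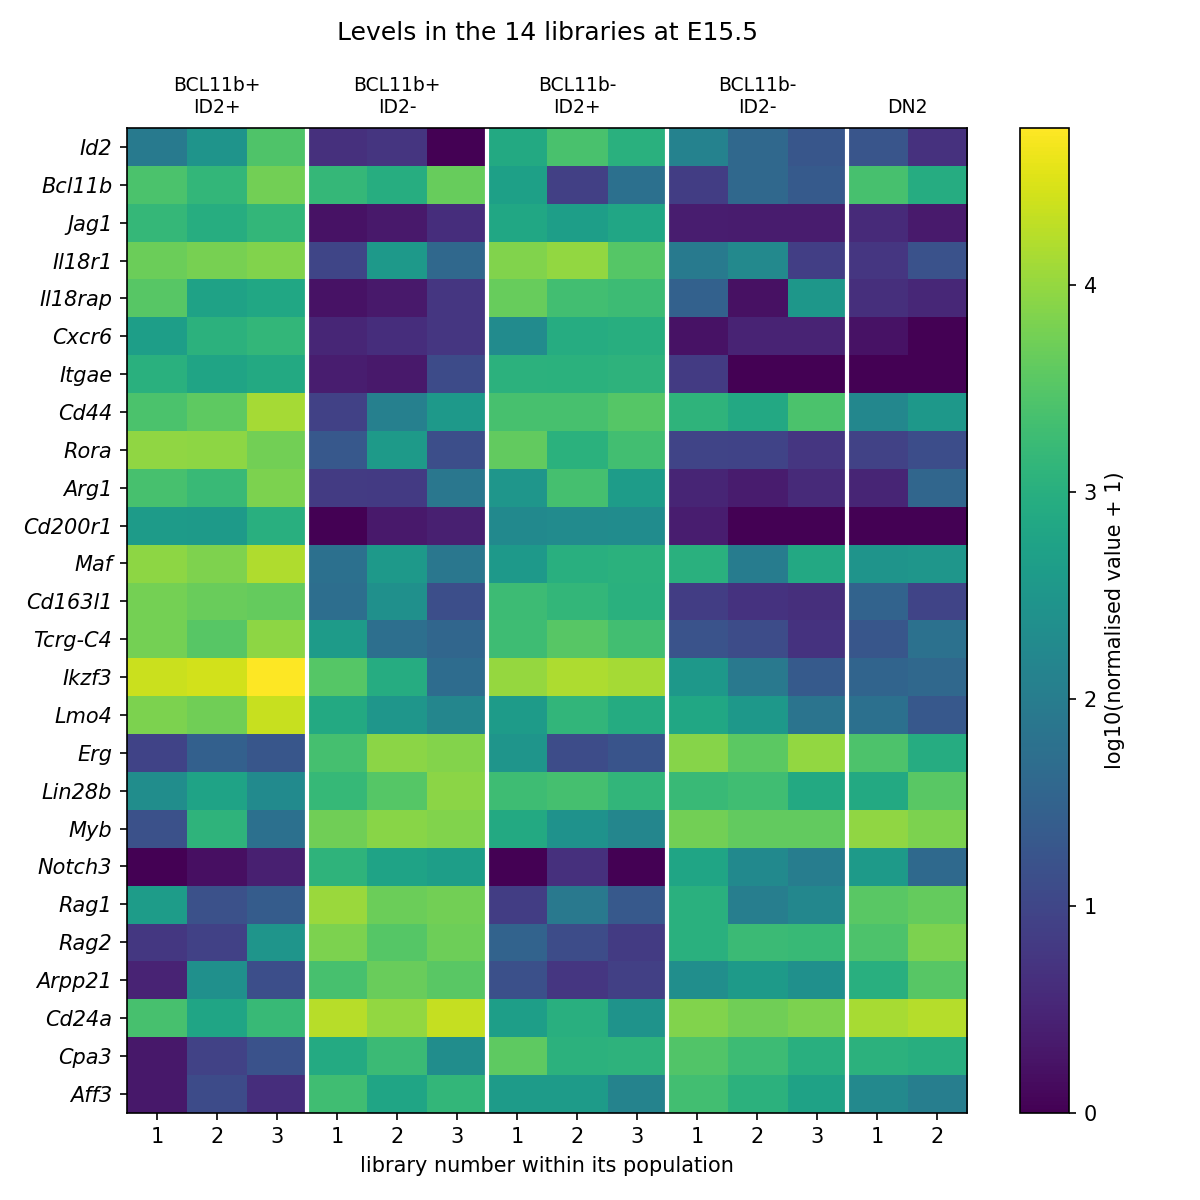
Colour gives log10(normalised value + 1) of the sorting genes and further named genes in each of the 14 E15.5 libraries, in columns grouped by population. Genes from Jag1 to Lmo4 are bright in the BCL11b+ID2+ columns and mostly in the BCL11b-ID2+ ones, while Erg, Myb and Cd24a are bright in BCL11b+ID2-, BCL11b-ID2- and DN2 columns.

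The same gates at E19.5 gave a separate set of libraries, which were normalised apart, so no test was run across the stages. There, 5.39% of the 9935 genes tested at both stages were higher in the BCL11b+ID2+ gate and 3.79% were lower. Of the 41 genes higher at E15.5, 17 were also higher at E19.5, which is 41.5% of the E15.5 list and 3.18% of the 535 higher at E19.5. Of the 33 lower genes 16 were also lower, 48.5% of the E15.5 list and 4.24% of 377. In no case was a gene called in opposite directions. The sign was the same for 34 of the 41 and 26 of the 33, where 5031 and 4904 of all 9935 genes had a positive and a negative difference.

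Several of the E15.5 differences stood again at E19.5 with less spread. Jag1 had 554, 608 and 738 in BCL11b+ID2+ libraries, against 104, 137 and 145 in BCL11b+ID2- libraries (log2 difference 2.29 ± 0.50, adjusted p = 0.0042). Il18rap had 725, 471 and 562 in BCL11b+ID2+ libraries, against 12.1, 28.9 and 39.7 in BCL11b+ID2- libraries (log2 difference 4.52 ± 0.47). Notch3 had 1.78, 1.11 and 0 in BCL11b+ID2+ libraries, against 149, 110.3 and 129 in BCL11b+ID2- libraries (log2 difference -6.17 ± 0.78, adjusted p = 1e-05). Id2 itself passed, with 961, 1174 and 1221 in BCL11b+ID2+ libraries against 1.74, 32.1 and 24.9 in BCL11b+ID2- libraries (log2 difference 6.39 ± 0.74). Of the ILC2 genes short of the threshold at E15.5, Il1rl1 had 3187, 3755 and 3931 in BCL11b+ID2+ libraries, against 0, 0 and 1.84 in BCL11b+ID2- libraries (log2 difference 11.32 ± 0.70), and Cysltr1 had 1068, 1297 and 1538 in BCL11b+ID2+ libraries, against 0, 5.36 and 2.77 in BCL11b+ID2- libraries (log2 difference 8.80 ± 0.64), both called.

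Other E15.5 differences were not called at E19.5. Erg had 1.78, 0 and 0 in BCL11b+ID2+ libraries and 0, 0 and 0 in BCL11b+ID2- libraries, so that its reads were gone from both gates. Rag1 had 194, 222 and 304 in BCL11b+ID2+ libraries and 198, 196 and 251 in BCL11b+ID2- libraries (log2 difference 0.14 ± 0.39). Rag2 had 19.6, 13.3 and 16.5 in BCL11b+ID2+ libraries and 46.9, 17.1 and 22.1 in BCL11b+ID2- libraries. Maf had 1155, 1048 and 880.4 in BCL11b+ID2+ libraries and 2320.3, 2131 and 1607 in BCL11b+ID2- libraries (log2 difference -0.97 ± 0.32, adjusted p = 0.064), the opposite side from E15.5. Rora had 1446, 1456 and 1285 in BCL11b+ID2+ libraries and 646, 751 and 506 in BCL11b+ID2- libraries (adjusted p = 0.077), and Cd163l1 had 862, 905 and 749 in BCL11b+ID2+ libraries and 843, 541 and 754 in BCL11b+ID2- libraries, with overlap. Bcl11b was lower in the BCL11b+ID2+ gate at E19.5, at 409, 539 and 596 in its libraries against 2076, 1476 and 1469 in BCL11b+ID2- libraries (log2 difference -1.70 ± 0.50, adjusted p = 0.035), which was not the case at E15.5.

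**Figure D5:**
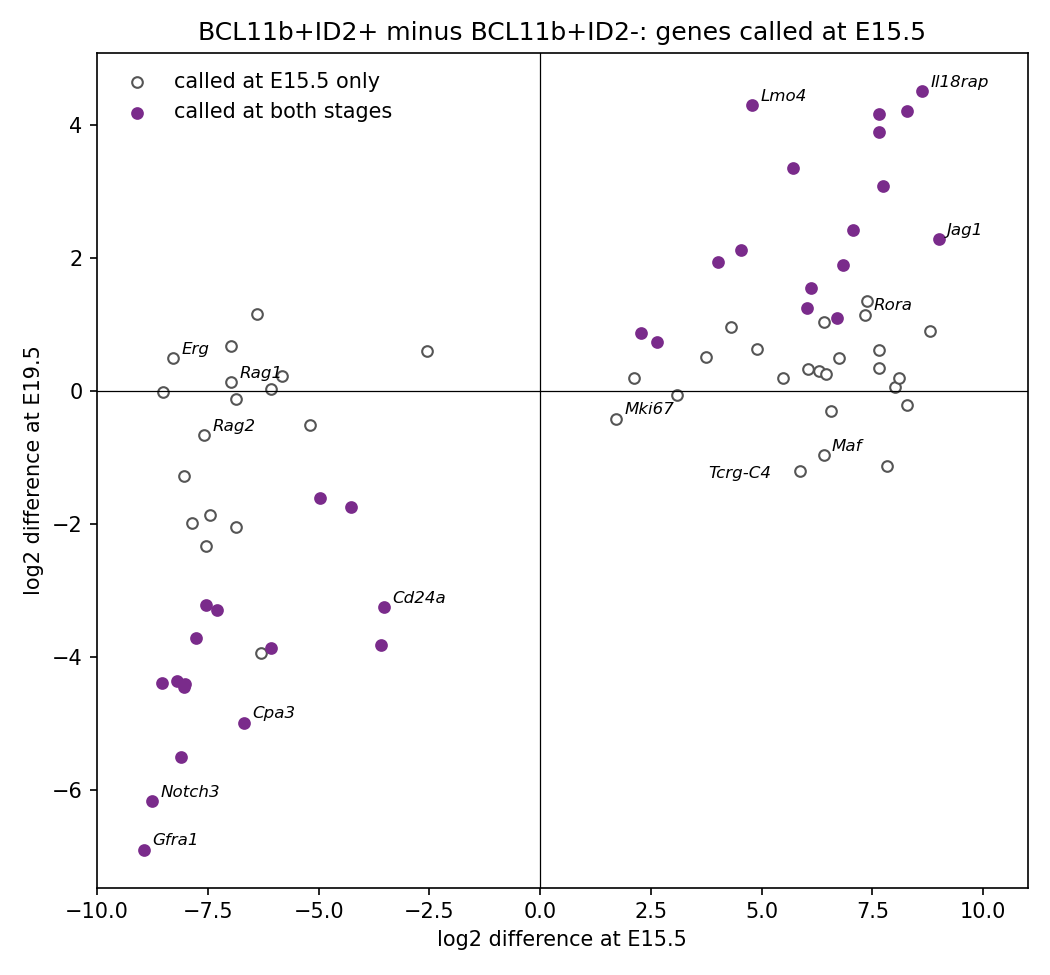
Log2 difference, BCL11b+ID2+ minus BCL11b+ID2-, of the 74 genes called at E15.5, with E15.5 on the x axis and E19.5 on the y axis. Filled points (17 higher and 16 lower) were called at both stages; Erg, Rag1 and Rag2 lie near 0 at E19.5, and Maf and Tcrg-C4 lie below 0 there.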

How the data were processed

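The authors deposited 1 table for each stage of signal values, read counts scaled by DESeq size factors per the labels. The submitters' processing notes list Trim Galore 0.50, STAR 2.6.0a, DESeq2 1.18.1 and GRCm38. The counting tool, annotation and strandness are not given in the sources used here, so reads of overlapping or antisense genes may be mixed. Per the labels' protocols, sorted-cell RNA was amplified with the Ovation RNA-seq System V2. The E15.5 columns have numbers as headings, which were matched to samples by the barcode number in the descriptions, and the gates rest on that match. There were 0 columns of other samples. Coordinates come from GENCODE (GRCm38).

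Dividing by the value of 1 read gave whole reads for 100% of values (tolerance 0.01 reads), although in BCL11b+ID2+ library 1 a read is worth so nearly 1 that the recovery shows little there. Tests used log2(value + 1), which understates differences of low genes, on genes reaching 10 in 3 or more libraries. All 14 E15.5 libraries entered 1 model in limma 3.58.1 (R 4.3.3; trend and robust variances), with Benjamini-Hochberg adjustment and a threshold of 0.05. The median SE was 1.97 at E15.5 and 0.673 at E19.5. Folds are ratios of mean values, and the floor of 3 reads covers counting error only. Alternatives were edgeR 4.0.16 and DESeq2 1.42.0 on the recovered reads, TMM scaling, a pseudocount of 8, no filter, library weights, the 6 libraries alone, a replicate block and leaving out each library. The code was tested on simulated data with a set spread, not that of these libraries, so the error rate here is not known from it.

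Genes were named if called, without overlap and with a mean of 100 or more in the higher gate (the first 15 per direction, predicted, mitochondrial and ribosomal genes left out), with every called list member and up to 4 others per list. Those others were the uncalled members with the largest absolute log2 difference, at a mean of 100 or more in either gate. Rgs1, Lcp1, B2m and genes given only as levels stand outside this rule and were chosen after their values were seen. Members and lists were chosen with earlier results of these data known. Some called genes are not reported here and do not appear by name in the figures.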

Additional observations from a re-analysis of the deposited data

Results flagged for a closer look

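For a few named genes the gates did not overlap at either stage and lay on opposite sides, with every BCL11b+ID2+ library above every BCL11b+ID2- library at one stage and below it at the other. The same held for 109 of all 9935 genes tested at both stages (1.1%), so nothing particular to these genes is read from it. Since the stages were normalised apart, the difference between them was not tested. Maf had a log2 difference of 6.40 at E15.5 and -0.97 at E19.5. Tcrg-C4 had 5.86 and -1.21, with 527, 357 and 409 in BCL11b+ID2+ libraries and 972, 971 and 1006 in BCL11b+ID2- libraries at E19.5. Tox2, which was not called at E15.5, had 7.75 at E15.5 and -2.76 at E19.5, where it was called lower. The Notch target Hes1 had -3.69 and 1.37, called at neither stage. Bcl11a, a progenitor factor, had -3.52 at E15.5 (not called) and 4.23 at E19.5 (called higher). The cell cycle inhibitor gene Cdkn1a had -6.02 at E15.5 (not called), where 1222 in BCL11b+ID2- library 2 stood beside 29.9 and 14.2 in the other 2, and 6.15 at E19.5 (called higher).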

How the results depend on the processing

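The E15.5 comparison called 74 genes. It called 78 with a pseudocount of 8 (68 of them shared), 78 with TMM scaling, 62 with edgeR (45 shared), 21 without the filter, 25 with library weights, 2 with the 6 libraries alone and 1084 with DESeq2 (72 shared). Leaving out 1 library gave 15 to 79. The cause of these moves was not tested. Over all tested genes the median log2 difference stood at -0.22, and at 0.0 with edgeR and DESeq2, a shift that small differences should be read against. The interaction called 0 genes, 377 with DESeq2, and 0 to 1 when 1 library was left out. No difference changed sign in any alternative among the 118 named genes checked at E15.5 and the 57 checked at E19.5. The check left out E19.5 differences that were not called, such as those of Rag1 and Maf. It also left out small E15.5 differences that were not called, apart from that of Bcl11b. The E19.5 count stayed within 1.5 times of 1208. At E15.5, same-numbered libraries of the 2 BCL11b+ gates did not deviate together (correlations -0.0038, 0.0294 and 0.0145). Not every library correlated best with its own number there, so the numbers were not taken as pairs. Each E19.5 BCL11b+ID2+ library did correlate best with its own number, though weakly (0.0717, 0.0840 and 0.0230). So did each E15.5 BCL11b-ID2+ library with BCL11b-ID2- (0.0166, 0.0046 and 0.0388). Pairing is therefore not excluded, and the main tests leave it out. A replicate block called 59 genes at E15.5, all among the 74, and 1433 at E19.5, where the main fit called 1208. Without mitochondrial transcripts, E15.5 libraries held 3393061 to 7808245 reads, and E19.5 libraries held 1762514 to 5161153.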
